A study of Mus with 21 samples.

Results

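GABA-A receptors are pentameric chloride channels, and the genes described here encode 7 of their subunits: α2 (Gabra2), α3 (Gabra3), α4 (Gabra4), α5 (Gabra5), β1 (Gabrb1), β2 (Gabrb2) and γ1 (Gabrg1). They were taken by gene name from a table of read counts on 55335 genes, in which each of the 7 names stood on 1 row, and all 7 were among the 30552 genes expressed highly enough to be tested. The table holds 21 libraries of poly(A) RNA from whole brains of female mouse embryos at E17.5, late in gestation, on a C57BL/6J background. In 5 WT embryos both genes of interest were intact (Wapl +/+, Nipbl +/+). In 3 Nipbl+/- embryos 1 copy of Nipbl, the cohesin loader, was deleted, with Wapl +/+. In 7 Wapl Δ/+ embryos 1 copy of Wapl, the factor that releases cohesin from DNA, was deleted, with Nipbl +/+, and 6 double heterozygotes carried both deletions. The Wapl Δ allele lacks the promoter and the start of the coding sequence and was made once in the germ line with E2a-Cre, whereas the Nipbl deletion arose anew in the sires, whose Stra8-icre transgene recombines a floxed Nipbl allele in premeiotic male germ cells. The embryos came from separate crosses, and the labels do not say which cross or litter each embryo came from. A further Nipbl+/- library, set aside in the study for poor reads, was not analysed here.

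In the adult brain GABA is the main inhibitory transmitter. A typical GABA-A receptor combines α and β subunits, which form the GABA binding sites between them, with a γ subunit, which contributes to the benzodiazepine site and to anchoring at synapses. Before birth, immature neurons hold more chloride than adult neurons, so that GABA can depolarize them and acts on proliferation, migration and early synapse formation. The subunits used at this age differ from those of the adult: α2, α3 and α5 are prominent in embryonic forebrain, and β2 rises as circuits mature.

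Total counts ran from 25682566 to 35818767 per library. As a check of the labels, Nipbl stood at 55.2% ± 4.2 of the WT mean in Nipbl+/- (SD, n = 3) and at 55.4% ± 1.8 in double heterozygotes (SD, n = 6), and Wapl stood at 47.2% ± 4.4 in Wapl Δ/+ (SD, n = 7) and at 49.9% ± 1.8 in double heterozygotes. The libraries fell into 2 sets by the mitochondrial transcript mt-Nd3, which had 0 to 6 counts in 12 of them and 52 to 106 counts in the other 9. WT replicates 1 to 3, all Nipbl+/- libraries, Wapl Δ/+ replicates 1 and 2 and double heterozygote replicates 1 to 4 were in the set with few counts. The origin of the sets was not tested. In the labels, the Wapl deletion is written before the intact allele in just those Wapl Δ/+ and double heterozygote libraries with few mt-Nd3 counts, so that these properties cannot be told apart there.

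The 7 genes lie in 4 places of the mouse genome (GRCm38). Gabrg1 (chr5:70751047-70842617), Gabra2 (chr5:70958392-71095849), Gabra4 (chr5:71569734-71658308) and Gabrb1 (chr5:71657921-72149572) stand side by side within 1.40 Mb. Gabra5 (chr7:57407669-57591016) and Gabrb2 (chr11:42419515-42632591) each lie in a cluster with further subunit genes, and Gabra3 (chrX:72432676-72656919) lies between Gabre and Gabrq. The spans of Gabra4 and Gabrb1 overlap by 388 bases, and those of Gabra5 and Gm9962 by 2273 bases. Whether the counting used strand is not given in the sources used here, so reads in those short stretches cannot be assigned with certainty. All 7 are long genes, from 88.6 kb for Gabra4 to 492 kb for Gabrb1, with a median of 183 kb against 15.4 kb over the 24076 tested genes with a known span. Among those genes, 12.1% were at least as long as Gabra4.

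The comparison of Nipbl+/- with WT asked which genes respond to loss of 1 Nipbl copy. All 7 subunit genes were lower in Nipbl+/- at an adjusted P below 0.10 (edgeR quasi-likelihood test, Benjamini-Hochberg adjustment over all 30552 genes). Over all genes tested, 11.2% were called in this comparison and 6.96% were called lower; among the 10027 genes at least as abundant as Gabra4, the lowest of the 7 by mean, 13.6% were called lower. The median log2 fold change was -0.42 for the 7 genes and -0.01 for all genes. In whole brain, fewer cells that express a gene and less RNA per cell cannot be told apart. Values below are normalized counts (counts scaled for library size and composition with TMM factors), which depend on transcript length and are compared only within a gene.

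Gabrb2, whose β2 protein is part of the commonest adult receptor, fell furthest. Its normalized counts were 1228, 1123, 899, 875 and 988 in the 5 WT libraries and 281, 517 and 603 in the 3 Nipbl+/- libraries. Every Nipbl+/- library was below every WT library, and the Nipbl+/- libraries also differed widely among themselves. The mean was 1023 ± 150 in WT and 467 ± 167 in Nipbl+/- (SD), a log2 fold change of -1.16 ± 0.16 (SE, adjusted P = 0.000273 by edgeR). Nipbl+/- replicate 1 was the lowest library, at 27.5% of the WT mean. The fold change ranged from -1.38 to -0.90 when each of the 8 libraries was left out in turn.

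Gabrb1, the other β subunit gene among the 7, had 1489, 1418, 1384, 1394 and 1328 normalized counts in WT and 921, 1154 and 1023 in Nipbl+/-. The groups did not overlap. Its log2 fold change was -0.47 ± 0.06 (SE, adjusted P = 0.000182 by edgeR).

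Gabra5, whose α5 protein sits largely outside synapses and carries tonic inhibition in the hippocampus, was among the most uniform of the 7 in WT embryos, with 1635, 1677, 1689, 1695 and 1613 normalized counts. The Nipbl+/- libraries had 1129, 1391 and 1075, all below WT. The log2 fold change was -0.50 ± 0.06 (SE, adjusted P = 0.000126 by edgeR). Gabra4, whose α4 protein is also found mainly outside synapses and pairs with δ in thalamus and striatum, had 572, 513, 514, 545 and 551 normalized counts in WT against 403, 457 and 370 in Nipbl+/-. These groups did not overlap either, and the log2 fold change was -0.42 ± 0.07 (SE, adjusted P = 0.00101 by edgeR).

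The remaining α subunit genes changed less. Gabra2, whose α2 protein is a synaptic subunit concentrated at the axon initial segment of forebrain neurons, had 1384, 1280, 1230, 1279 and 1241 normalized counts in WT and 1086, 1182 and 1096 in Nipbl+/-, with no overlap. Its log2 fold change was -0.22 ± 0.05 (SE, adjusted P = 0.00961 by edgeR). Gabra3, encoding the X-linked α3 subunit, had 3034, 2873, 2982, 2907 and 2966 normalized counts in WT and 2768, 2935 and 2616 in Nipbl+/-. Nipbl+/- replicate 2 lay within the WT range, and the log2 fold change was -0.12 ± 0.04 (SE, adjusted P = 0.0831 by edgeR). The Gabra3 call did not hold up: it was lost in 15 of 18 alternative analyses, in which its adjusted P ran from 0.0113 to 0.411, and in 7 of the 8 that left out 1 library.

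Gabrg1, encoding γ1, a subunit of restricted regional use that is also expressed by glia, had 783, 700, 661, 694 and 646 normalized counts in WT and 529, 652 and 462 in Nipbl+/-. Replicate 2 again reached the WT range, here just above its lowest library. The log2 fold change was -0.38 ± 0.09 (SE, adjusted P = 0.0115 by edgeR). Across the 7 genes, 5 had every Nipbl+/- library below every WT library, a pattern shown by 5.59% of all genes tested.

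**Figure D1:**
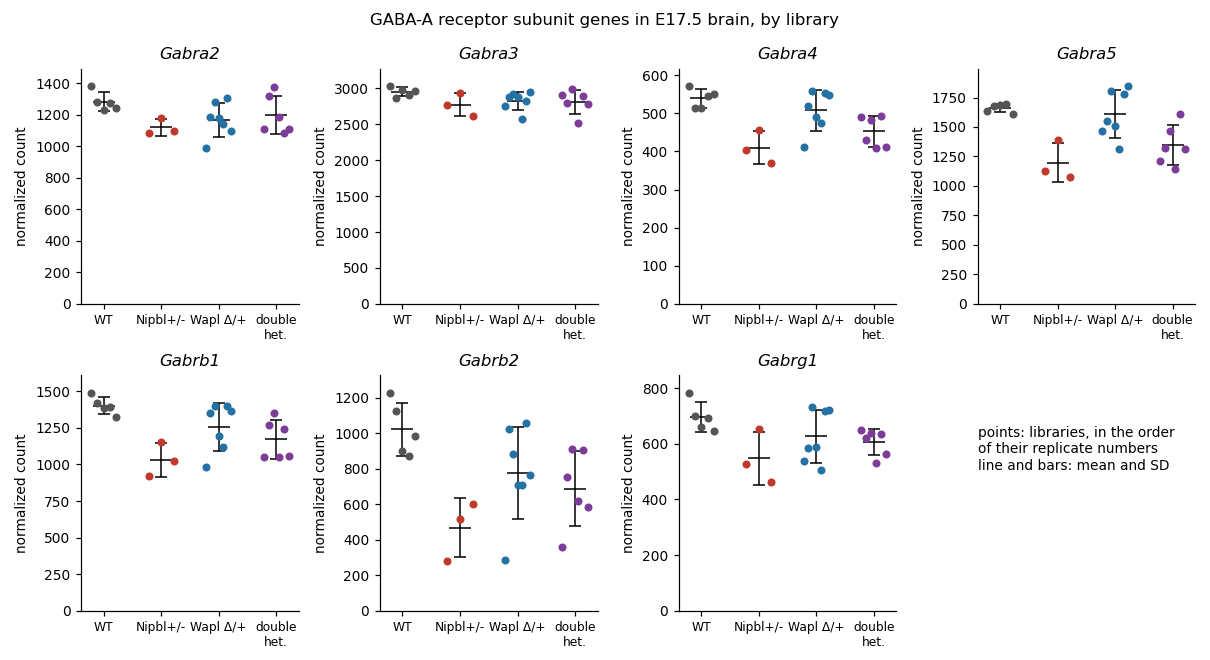
Normalized counts (vertical axes, from 0) of the 7 subunit genes by genotype. Each point is a library in the order of its replicate number within the group, and the lines and bars give the mean and SD for WT (n = 5), Nipbl+/- (n = 3), Wapl Δ/+ (n = 7) and double heterozygotes (n = 6). The Nipbl+/- points lie below all WT points for Gabra2, Gabra4, Gabra5, Gabrb1 and Gabrb2, and for Gabrb2 replicate 1 is the lowest point of each mutant genotype.

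The calls in Nipbl+/- were also made within 1 set of libraries. Among the 3 WT and 3 Nipbl+/- libraries with few mt-Nd3 counts, 6 of the 7 genes were called lower, all but Gabra3. In 1 fit over all 4 genotypes, with a common estimate of the spread, 5 were called, without Gabra2 (adjusted P = 0.182 by edgeR) and Gabra3.

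The Wapl Δ/+ comparison put the same question to loss of 1 Wapl copy, against the same 5 WT libraries. None of the 7 genes was called by edgeR (0 of 7, 4 of them at an unadjusted P below 0.05), and DESeq2 also called 0. The background was 2.22% of all genes. All 7 log2 fold changes were negative, with a median of -0.15 against -0.003 over all genes, and adjusted P ran from 0.215 to 0.742. Gabrb2 had the largest difference, with a lowest value of 286, a median of 764 and a highest value of 1057 normalized counts, a log2 fold change of -0.41 ± 0.19 (SE, adjusted P = 0.294 by edgeR). The lowest of these was replicate 1, at 28.0% of the WT mean, and the rest of the group lay at 69.2% or higher. For Gabra5 the Wapl Δ/+ libraries spread to both sides of WT: 4 were below all WT libraries and 3 were above all of them, and the log2 fold change was -0.06 ± 0.07 (SE, adjusted P = 0.742 by edgeR).

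For all 7 genes, single Wapl Δ/+ brains differed more from each other than WT brains did. The coefficient of variation among Wapl Δ/+ libraries was 13.0% for Gabrb1 and 12.6% for Gabra5, against 4.2% and 2.2% in WT. It was of like size in Nipbl+/- (11.3% and 14.1%) and in double heterozygotes (11.5% and 12.6%). The spread was not tested. In Wapl Δ/+ replicates 1 and 5, all 7 genes were below every WT library, and in replicate 3 none was. How many genes of the whole table lay below every WT library in single libraries was not counted. The 2 Wapl Δ/+ libraries whose labels write the deletion before the intact allele, compared with all 5 WT libraries, gave 2 calls: Gabra2 (log2 fold change -0.26, adjusted P = 0.0730 by edgeR) and Gabrg1 (-0.33, adjusted P = 0.0444 by edgeR). The 5 whose labels write it last gave 0. Over the whole table the former called 991 genes, 562 of them lower, and the latter 1300 genes, 860 of them lower. Against only the 3 WT libraries with few mt-Nd3 counts, the same 2 Wapl Δ/+ libraries gave 0 of the 7 and 47 genes in all. With the mt-Nd3 set as a term over all Wapl Δ/+ and WT libraries, 0 of the 7 and 305 genes in all were called. Replicate 1 is among the 2 libraries. The part of that library, of the mt-Nd3 sets and of the number of WT libraries in these differences was not tested.

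Double heterozygotes were compared with WT to ask what remains changed when both genes are reduced. Again the WT libraries are the same, so the 3 comparisons with WT are not independent of each other. Of the 7 genes, 4 were lower (Gabra4, Gabra5, Gabrb1 and Gabrb2) and 3 were not called, against 3.28% of all genes called and 2.46% called lower, or 4.85% lower among genes at least as abundant as Gabra4. The median log2 fold change was -0.26 over the 7 and 0.001 over all genes.

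Gabra5 in double heterozygotes ran from 1148 to 1611 normalized counts with a median of 1317, all below the lowest WT library at 1613. Its log2 fold change was -0.31 ± 0.07 (SE, adjusted P = 0.0182 by edgeR). Gabra4 ran from 409 to 492 with a median of 456, likewise all below WT, with a log2 fold change of -0.26 ± 0.06 (SE, adjusted P = 0.0368 by edgeR). These 2 genes had no overlap between the groups, which 1.83% of all genes showed. Gabrb1 ran from 1048 to 1350 with a median of 1151, and 5 of 6 libraries were below WT. Its log2 fold change was -0.27 ± 0.06 (SE, adjusted P = 0.0413 by edgeR).

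Gabrb2 varied most among double heterozygotes too. It ran from 358 to 912 normalized counts with a median of 685, and 4 of 6 libraries were below WT. The log2 fold change was -0.57 ± 0.16 (SE, adjusted P = 0.0816 by edgeR), and DESeq2 gave an adjusted P of 0.138. The Gabrb2 call was lost in 12 of 24 alternatives, among them 7 of the 11 that left out 1 library. Those of Gabra4, Gabra5 and Gabrb1 were lost in 4, 2 and 5 of the 24. Gabrg1 narrowly missed the threshold, at -0.20 ± 0.06 (SE, adjusted P = 0.106 by edgeR), and was called in 7 of the 24 alternatives. Gabra2 and Gabra3 had log2 fold changes of -0.10 and -0.07. The number of the 7 genes called in double heterozygotes was less firm than in Nipbl+/-. It was 1 without WT replicate 1 and 2 without double heterozygote replicate 4, with 483 and 530 genes called in the whole table. Among the 3 WT and 4 double heterozygote libraries with few mt-Nd3 counts it was 3, with 672 genes in all. In the 2 against 2 libraries with many it was 0, with 1 gene in all. With all libraries 1001 genes were called.

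**Figure D2:**
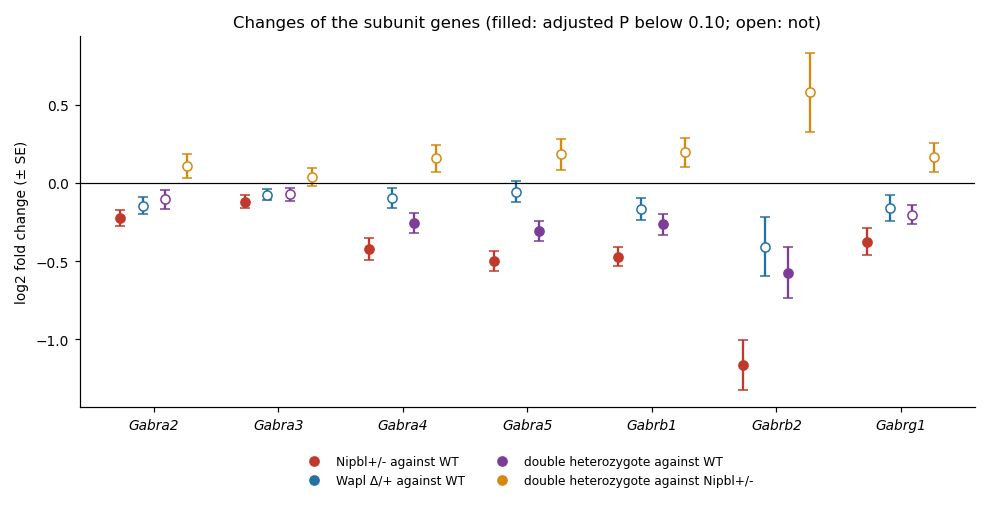
Log2 fold changes of the 7 subunit genes, with SE as bars, in 4 comparisons (colours); filled points passed an adjusted P of 0.10 in edgeR and open points did not. All points against WT lie below 0 and all points for double heterozygotes against Nipbl+/- lie above 0, where none passed.

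For all 7 genes the mean in double heterozygotes lay between the WT and Nipbl+/- means, a placement shown by 48.7% of all genes tested. Most of those genes were not called in Nipbl+/-, whereas all 7 were called lower there, so that share is no like baseline. The share among genes called in Nipbl+/- was not counted here. The study classed most of its genes changed in Nipbl+/- as at least partly rescued. The share of the Nipbl+/- drop that was still present in double heterozygotes ran from 52.5% for Gabra2 to 75.5% for Gabra3, with 60.2% for Gabrb2 and 68.4% for Gabra5. The direct comparison of double heterozygotes with Nipbl+/-, which addresses whether removing a Wapl copy alters expression in Nipbl+/- brain, called none of the 7 in edgeR or DESeq2 (0 of 7, 1 at an unadjusted P below 0.05). The background was 0.00655%, or 2 of 30552 genes. The log2 fold changes were all positive, from 0.04 ± 0.06 for Gabra3 to 0.58 ± 0.25 for Gabrb2 (SE), with adjusted P of 0.971 or more. Those for Gabra4, Gabra5 and Gabrb1 were 0.16 ± 0.09, 0.18 ± 0.10 and 0.20 ± 0.09. Differences of this size were not resolved with 3 against 6 libraries. These values share the Nipbl+/- libraries with the drop from WT.

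Against Wapl Δ/+, double heterozygotes were called different for none of the 7 genes in edgeR or DESeq2 (0 of 7, 2 at an unadjusted P below 0.05; background 1.02%). Gabra5 came nearest, at -0.25 ± 0.08 (SE, adjusted P = 0.237 by edgeR). It was called without Wapl Δ/+ replicate 5 (adjusted P = 0.0969 by edgeR) and without double heterozygote replicate 5 (adjusted P = 0.0845 by edgeR).

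The interaction term asked whether the double heterozygotes departed from the sum, on the log2 scale, of the changes in the single heterozygotes. It was positive for all 7 genes, from 0.09 ± 0.06 for Gabra3 to 0.96 ± 0.36 for Gabrb2 (SE). The value for Gabrb1 was 0.34 ± 0.12. None passed in edgeR (0 of 7, 4 at an unadjusted P below 0.05, adjusted P from 0.231 to 0.608), and no gene of the whole table did (0 of 30552, 4221 at an unadjusted P below 0.05). The count over the table was not stable. By edgeR it was 945 without double heterozygote replicate 6, 253 without Wapl Δ/+ replicate 2 and 63 when the Wapl Δ/+ and double heterozygote libraries were limited to those whose labels write the deletion first, each with 0 of the 7, and DESeq2 called 793 genes and 1 of the 7, Gabrb1 (adjusted P = 0.0949).

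Set out by library, the 7 genes did not all differ from WT to the same degree. In Nipbl+/- replicates 1 and 3 all 7 were below every WT library, and in replicate 2 there were 5. Among double heterozygotes the count was 7 in replicates 4 and 6 and 3 in replicate 3, the library closest to WT. The matching counts over all genes were not made. Since the 7 genes varied together, each count is not made up of 7 separate observations. The 3 libraries with the lowest Gabrb2 were Nipbl+/- replicate 1, Wapl Δ/+ replicate 1 and double heterozygote replicate 1, at 27.5%, 28.0% and 35.0% of the WT mean, and in the same libraries the highest of the 7 genes stood at 93.7%, 93.2% and 98.6%. The sum over the 7 genes was 9558 ± 332 normalized counts in WT, 7550 ± 642 in Nipbl+/-, 8773 ± 870 in Wapl Δ/+ and 8278 ± 695 in double heterozygotes (SD).

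**Figure D3:**
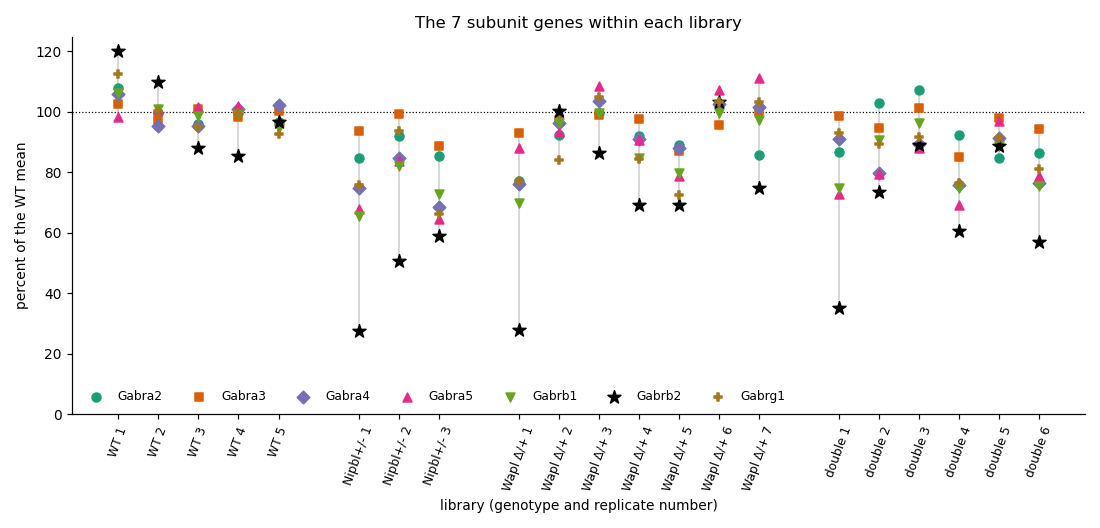
Each of the 7 genes as a percent of its WT mean (vertical axis, dotted line at 100) in each of the 21 libraries (horizontal axis, by genotype and replicate number). Black stars mark Gabrb2, which stands at 27.5%, 28.0% and 35.0% in replicate 1 of the 3 mutant genotypes, far below the other 6 genes of those libraries.

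Shares of reads within each subunit class give the make-up by genotype. Of the reads on the 6 α subunit genes, Gabra3 held 40.1% ± 0.6 in WT, 45.0% ± 1.2 in Nipbl+/-, 40.9% ± 1.8 in Wapl Δ/+ and 43.3% ± 1.2 in double heterozygotes (SD). Gabra5 held 22.6% ± 0.7, 19.4% ± 1.1, 23.2% ± 1.4 and 20.6% ± 1.7 in the same order. The Wapl Δ/+ means of both lay within 1 percentage point of WT. Of the reads on the 3 β subunit genes, Gabrb2 held 12.01% ± 1.36, 6.94% ± 2.25, 9.96% ± 2.72 and 9.48% ± 2.4. Gabrg1 held 14.7% ± 0.6, 12.8% ± 1.1, 14.2% ± 1.1 and 13.7% ± 0.5 of γ subunit reads. These are shares of reads and not of molecules, since the genes differ in transcript length, and they were not tested.

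The levels of the 7 genes varied together over the 21 libraries. After removing the genotype means, the 21 pairs of genes had a median Pearson r of 0.70 (0.18 to 0.84), given as a description since the libraries share depth and processing. Gabrb1 and Gabrb2 were the closest pair (r = 0.84) and Gabra3 and Gabrb2 the least alike (r = 0.18). Among 13407 other genes averaging 5 CPM or more (CPM, counts scaled to a common library size), the best match over all 21 libraries was Ptprd for Gabrb2 (r = 0.96), Frmpd4 for Gabrb1 (r = 0.98), Pla2g7 for Gabra5 (r = 0.98), Vstm2a for Gabra4 (r = 0.95), Lhfpl3 for Gabrg1 (r = 0.94), Anks1b for Gabra2 (r = 0.90) and 4933431E20Rik for Gabra3 (r = 0.87). Atp2b1, a plasma membrane calcium pump gene, was among the 3 best matches of both Gabrb1 and Gabrb2, and Slc1a3, the glutamate transporter of radial glia and astrocytes, among those of Gabra5. These are the extremes of a large search and contain the genotype differences.

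The other 12 GABA-A subunit genes gave 5 that were lower in Nipbl+/- and 0 higher, with a median log2 fold change of -0.32. For this and the following lists, the shares of all genes called lower were 6.96% in Nipbl+/- and 2.46% in double heterozygotes. In Wapl Δ/+ 2.22% were called in either direction. Of the 5 called lower in Nipbl+/-, Gabrg3, encoding γ3, had a log2 fold change of -0.39 there (adjusted P = 0.0117 by edgeR). Gabrq, encoding θ, had -0.26 in Nipbl+/- (adjusted P = 0.0638 by edgeR). The count of 5 was 3 without WT replicate 1 or 5, without Nipbl+/- replicate 1 or 3, and among the libraries with few mt-Nd3 counts. In double heterozygotes 3 were lower, among them Gabrg3 (-0.27, adjusted P = 0.0510 by edgeR). In Wapl Δ/+ 0 were called by edgeR and 2 by DESeq2, and edgeR called 1 without Wapl Δ/+ replicate 2, 3 or 6. Gabra6, Gabrp and Gabrr3 were close to absent, with means of 1.1 to 2.1 normalized counts.

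Genes that make, pack and clear GABA did not share one direction. Of 9, 4 were lower and 1 was higher in Nipbl+/-, with a median log2 fold change of 0.01. The lower ones were Slc6a11, the astrocytic transporter GAT-3 (-0.49, adjusted P = 0.00285 by edgeR), Slc6a13, the transporter GAT-2 of meninges and other tissues (-0.32), and Aldh5a1 and Abat, mitochondrial enzymes of GABA breakdown (-0.18 and -0.13). Slc6a12, the betaine and GABA transporter BGT1, was higher (0.47, adjusted P = 0.0654 by edgeR). That call was lost in 7 of 18 alternatives, among them 4 of the 8 that left out 1 library. Gad1 and Gad2, which encode the GABA-producing decarboxylases of neurons, were not called, with log2 fold changes of 0.05 each (adjusted P = 0.551 and 0.556 by edgeR). Slc6a11 alone was called in double heterozygotes (-0.42, adjusted P = 0.000879 by edgeR). The count in Nipbl+/- was 2 without WT replicate 2 and 3 without WT replicate 1 or Nipbl+/- replicate 1, and Abat was called in 4 of 18 alternatives. In double heterozygotes it was 2 without replicate 3 and 3 without replicate 5.

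Of 18 genes for receptor assembly, trafficking and the postsynaptic scaffold, 4 were lower in Nipbl+/-, 1 in Wapl Δ/+ and 1 in double heterozygotes, and 0 were higher. They included Plcl1, which binds GABA-A receptors and phosphatases (-0.35 in Nipbl+/- and -0.20 in double heterozygotes), Arfgef2, an exchange factor in vesicle trafficking (-0.39 in Nipbl+/- and -0.32 in Wapl Δ/+) and Trak2, a kinesin adaptor (-0.16). Gphn, encoding gephyrin, the core of the scaffold, had -0.03 in Nipbl+/- (adjusted P = 0.757 by edgeR), and Nlgn2, encoding the adhesion protein of inhibitory synapses, had 0.09 (adjusted P = 0.213 by edgeR). The median of the list was -0.02. The count in Nipbl+/- was 7 with DESeq2 and 2 without WT replicate 1 or without Nipbl+/- replicate 1. The Arfgef2 call in Wapl Δ/+ was lost without WT replicate 1, 2 or 5, and the count was 2 without Wapl Δ/+ replicate 2 or 7. In double heterozygotes the count was 2 without replicate 3.

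Among genes of chloride transport, Slc12a2, encoding the importer NKCC1, was lower in Nipbl+/- (-0.33, adjusted P = 0.00217 by edgeR) and in double heterozygotes (-0.16, adjusted P = 0.0808 by edgeR). Slc12a5, encoding KCC2, the neuronal exporter, had 0.03 in Nipbl+/- (adjusted P = 0.798 by edgeR). The Slc12a2 call in double heterozygotes was lost in 12 of 24 alternatives, among them those without WT replicate 1, 2 or 3 or without double heterozygote replicate 1, 4 or 6.

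Receptor genes of related systems were called in part. Of 5 genes for the GABA-B receptor and its auxiliary subunits, 3 were lower in Nipbl+/-: Kctd12 (-0.49, adjusted P = 7.6e-05 by edgeR), Kctd8 (-0.30) and Gabbr2 (-0.22). Of 5 glycine receptor genes, 3 were lower: Glra2, the main embryonic α subunit (-0.26, adjusted P = 0.00047 by edgeR), Glra3 (-0.65) and Glrb (-0.43). The other 2 genes of each list were not called, and the highest log2 fold changes in the lists were 8.87e-05 and 0.39. In double heterozygotes Kctd12 (-0.38), Gabbr2 (-0.23) and Glra2 (-0.24) were lower, and in Wapl Δ/+ 0 of these 10 genes were called by edgeR or DESeq2. The glycine count in double heterozygotes was 3 without replicate 3 or replicate 5.

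**Figure D4:**
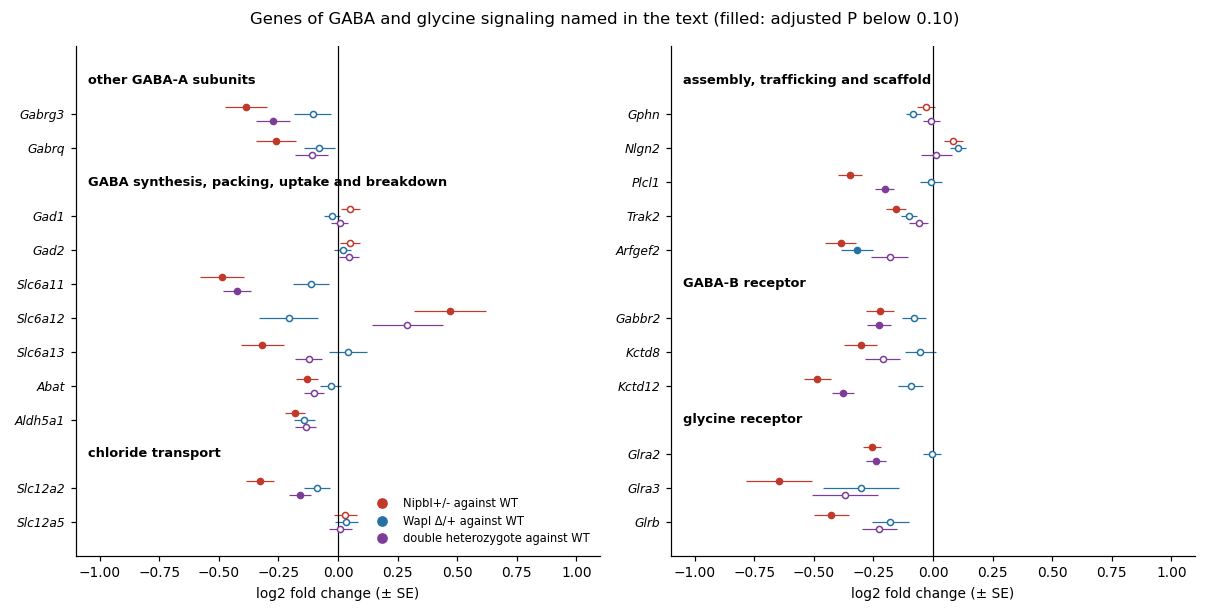
Log2 fold changes against WT (horizontal axis), with SE as bars, of the genes of GABA and glycine signaling named in the text, grouped by role and coloured by genotype; filled points passed an adjusted P of 0.10 in edgeR. Receptor genes such as Gabrg3, Kctd12, Glra2 and Glrb lie left of 0 in Nipbl+/-, while Gad1, Gad2, Gphn and Slc12a5 lie close to 0.

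Genes next to the 7 were looked at because several subunit genes stand in clusters. The neighbours were the 3 nearest tested genes on either side of each stretch that averaged 1 CPM or more, together with any between, 26 genes in all. Of these, 9 were lower and 0 higher in Nipbl+/-. Leaving out the 6 that are themselves GABA-A subunit genes, 4 of 20 were lower (Kctd8, Herc2, Gm9962 and Ube3a), with a median log2 fold change of -0.11. Over all genes tested 6.96% were called lower, and 13.6% among those at least as abundant as Gabra4. The Ube3a call lay near the threshold (adjusted P = 0.0926 by edgeR). On chromosome 5, Kctd8, whose end lies 1409 kb before Gabrg1, was called (-0.30), but Commd8, 7.0 kb beyond Gabrb1, was not (-0.07, adjusted P = 0.482 by edgeR). Gm9962 overlaps Gabra5 and had -0.42 (adjusted P = 0.0379 by edgeR), so shared reads may enter both. On chromosome 11, Slu7 had 0.02 and Pttg1 had -0.11, neither called. In double heterozygotes 3 of the 26 were lower, all subunit genes, and in Wapl Δ/+ the call was Herc2 (-0.31, adjusted P = 0.0629 by edgeR).

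Markers of the cells that could carry these transcripts moved in different directions. Over all 30552 genes tested, 1297 were called higher in Nipbl+/- and 2125 lower. With TMM factors over all 21 libraries these numbers were 2107 and 1755. The marker counts were not repeated with those factors, so calls of small changes may depend on the scaling. Of 7 markers of GABAergic neurons, 4 were higher in Nipbl+/- (Dlx1, Dlx2, Dlx5 and Lhx6, by 0.17 to 0.25 on the log2 scale) and 0 lower, and their summed level was 566 to 591 CPM in WT and 611 to 662 CPM in Nipbl+/-. Of 8 general neuronal markers, 2 were lower (Syt1 at -0.27 and Snap25 at -0.15), with sums of 5638 to 5798 CPM in WT and 5376 to 5709 CPM in Nipbl+/-. Of 6 genes taken as markers of glutamatergic neurons, 2 were lower, with sums of 845 to 918 CPM and 693 to 836 CPM. Among the 2 was Grin2b (-0.36), an NMDA receptor subunit gene that is not confined to these neurons. Of 7 astrocyte markers, 5 were lower, among them Aqp4 (-0.79) and Slc1a3 (-0.37), with sums of 614 to 668 CPM in WT, 478 to 582 CPM in Nipbl+/-, 526 to 684 CPM in Wapl Δ/+ and 498 to 625 CPM in double heterozygotes. Oligodendrocyte lineage markers had 3 of 6 lower, with sums of 218 to 243 CPM in WT and 172 to 215 CPM in Nipbl+/-. Regional markers of forebrain were higher in Nipbl+/- for 4 of 4 genes, by 0.15 to 0.26 on the log2 scale, with sums of 239 to 263 CPM in WT and 268 to 312 CPM in Nipbl+/-, and 0 of 4 were called in double heterozygotes. Midbrain markers had 2 of 4 higher, with sums of 25.4 to 28.7 CPM and 29.8 to 39.6 CPM, and 2 of 4 were also higher in double heterozygotes. Of 8 markers of progenitors and radial glia, 3 were higher and 1 was lower, with sums of 979 to 1008 CPM and 924 to 1099 CPM. Of 6 microglia markers, 3 were lower, with sums of 60.1 to 73.3 CPM and 51.3 to 59.3 CPM. In double heterozygotes, 4 of 6 oligodendrocyte lineage and 3 of 7 astrocyte markers were called lower. So were 1 of 8 general neuronal, 1 of 6 glutamatergic and 1 of 6 microglia markers. None of the 7 GABAergic neuron or 8 progenitor and radial glia markers was called there. Over all genes in double heterozygotes 248 were called higher and 753 lower (2.46%). In the other 7 lists (meninges, endothelium, blood, choroid plexus, pituitary, hindbrain and cerebellar granule lineage) 0 markers were called in Nipbl+/- by edgeR. Single libraries still differed widely in some of these lists. Hindbrain sums ran from 47.4 to 66.8 CPM in WT and from 19.3 to 73.4 CPM in Nipbl+/-. Pituitary sums ran from 1.07 to 88.2 CPM in WT and from 1.47 to 2.46 CPM in Nipbl+/-. Apart from Prl of the pituitary list in Wapl Δ/+, no marker of the lists described with sums was at 0 in a group. The part of cell composition in the lower subunit levels was not tested.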

How the data were processed

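RNA-seq was made from whole brains of 21 female E17.5 embryos. According to the submitters' processing notes, reads were trimmed with cutadapt 2.4, mapped to mm10 (GRCm38.p6) with STAR 2.5.3a and counted with featureCounts (Subread 1.6.4). The annotation used, the strand option and how reads shared by genes were handled are not given in the sources used here. The deposited values are raw counts per gene, without normalization. A gene was tested where its normalized counts over all libraries added up to 10 or more. Groups were compared with edgeR 4.0.16 (R 4.3.3) on their own libraries, with TMM factors of those libraries and the quasi-likelihood test, and called at a Benjamini-Hochberg adjusted P below 0.10, the threshold of the study. The interaction was fitted on all libraries. DESeq2 1.42.0, other filters, scalings, thresholds and subsets were alternatives, and the edgeR fits against WT were tested on simulated data, in which unchanged genes made up a larger share of the calls than the threshold implies, so calls close to it are less certain. Displayed normalized counts used TMM factors over all 21 libraries. The embryos of the study came from several litters of 2 crosses, and the litter of each library is not given in the sources used here, so P values measure the spread between embryos and litter was not a term. No replicate pair of a group agreed within sampling noise (chi-square per degree of freedom of 2.41 or more).

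The 7 genes, the gene lists and the tests were chosen with earlier results of these data known. Named were all 7 genes, up to 6 list genes called against WT with the smallest adjusted P, the nearest neighbours and the best matching genes; unchanged list genes and marker genes named beside them were chosen after their values were seen. Positions are those of RefSeq on GRCm38.p6, matched by symbol for all 19 GABA-A subunit genes. No sequence is shown, since none was used here. Some genes of the lists enter the counts and are not reported here by name.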

Additional observations from a re-analysis of the deposited data

How the results depend on the processing

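The 7 calls in Nipbl+/- became 5 in 1 fit over all 4 genotypes and 6 or 7 in every other alternative, and no member changed direction against WT. In double heterozygotes the 4 calls became 2 in that joint fit, 0 among libraries with many mt-Nd3 counts, 2 with the deletion written last, and 1 to 5 when 1 library was left out. In Wapl Δ/+ the 0 calls became 2 with the deletion written before the intact allele, and 0 to 0 without single libraries. Double heterozygotes against Wapl Δ/+ gave 0 to 1 when single libraries were left out. The interaction gave 1 call with DESeq2 and 0 otherwise.

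In no comparison did every pair of embryos with the same replicate number deviate together at a correlation over 0.1 (-0.09 to 0.05 for Nipbl+/- and WT, and 0.058 to 0.35, all above 0, for double heterozygotes and Nipbl+/-), so the numbers were not taken as pairs. With the replicate number as a block, the members called were 6 in Nipbl+/-, 3 in Wapl Δ/+, 4 in double heterozygotes, 1 for double heterozygotes against Nipbl+/- (Gabrb2, adjusted P = 0.00485 by edgeR), 0 against Wapl Δ/+ and 0 for the interaction. All genes called with the block were 1893, 1991 and 535 in the 3 comparisons with WT, against 3422, 677 and 1001 without it, and 59 (53 higher) for double heterozygotes against Nipbl+/-, against 2.

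Reversed signs were Gphn in Nipbl+/- (2.5e-05 in the joint fit, and -0.057 to 0.0016 without single libraries, above 0 without Nipbl+/- replicate 2), Slc12a5 (-0.049 to 0.084, below 0 without that replicate), Gabra2 (-0.033 with the deletion written last) and Gabra3 (-0.0034 to 0.080 without single libraries, below 0 without Nipbl+/- replicate 3) in double heterozygotes against Nipbl+/-, and Gabrb2 against Wapl Δ/+ (0.017 in libraries with few mt-Nd3 counts, which are those with the deletion written before the intact allele). TMM factors over all 21 libraries, an alternative chosen after seeing the data, turned the split of all genes called in Nipbl+/- from 1297 higher and 2125 lower to 2107 and 1755, and that in Wapl Δ/+ from 235 and 442 to 411 and 412, while the members gave 6, 0 and 4 calls against WT. Without single libraries, all genes called ran from 1828 to 4788 in Nipbl+/-, from 9 to 1534 in Wapl Δ/+ and from 454 to 2504 in double heterozygotes, from 163 to 449 for double heterozygotes against Wapl Δ/+ and from 0 to 945 for the interaction, and the joint fit gave 1658, 7 and 602. DESeq2 gave 1446 in Wapl Δ/+, 626 for double heterozygotes against Wapl Δ/+ (311 in edgeR) and 793 for the interaction (0 in edgeR with all libraries). Libraries with few mt-Nd3 counts gave 1881 in Nipbl+/- and 47 in Wapl Δ/+, and those with many gave 278 in Wapl Δ/+ and 1 in double heterozygotes. The cause of these changes was not tested.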
